A study of Arabidopsis thaliana with 16 samples.

Results

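Among the transcripts that were assembled outside the reference annotation of Arabidopsis thaliana, 573 carried more RNA in both exosome-pathway mutants than in wild-type seedlings of the same age. They were chosen from 2414 de novo transcripts that the authors built with the tools HOMER and StringTie. Estimated counts were expressed as CPM, counts per 1000000 of those assigned to nuclear genes and de novo transcripts. A transcript was taken as exosome-sensitive when its mean reached 0.2 CPM in both hen2-4 and rrp4-2 and when its ratio to wild type, after adding 0.05 CPM to both sides, was at least 3 in both. Of the remaining 1841 de novo transcripts, 511 reached the level but not the ratio in both mutants, and these are the nearest comparison set (low-ratio transcripts in what follows).

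Total RNA depleted of ribosomal RNA was sequenced with a strand-marking kit in 16 libraries, 2 in each of 8 groups. Col-0 wild type was sampled as dry seed (DS) and as seed kept imbibed in cold water in the dark, S24 for 24 h and S72 for 72 h. Seed was then moved to warmth and light without a break, and was taken as L6 (6 h) and L26 (26 h), with seedlings taken as L57 (57 h). From S72 to L6 temperature and light thus changed together, and their parts cannot be told apart. The groups hen2-4 and rrp4-2 were seedlings of 1 mutant line each, both in the Col-0 accession and taken at 57 h of light like L57. Whole seeds or seedlings were ground, so a lower level in 1 stage can mean fewer cells with the RNA or less RNA per cell, and these cannot be told apart. The labels do not state whether the 2 libraries of a group are from separate cultures, and the spread that p-values rest on may therefore be technical. The assembly drew on all samples, mutants included, and each de novo transcript had to begin near a start site seen by csRNA-seq, a method that reads the capped ends of newly begun RNAs.

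Library totals ran from 75.6 M to 113 M counts (M, a factor of 1000000) in DS, L6, L26 and L57, and from 238 M to 266 M in S24, S72 and both mutants, so any comparison between these sets also compares shallow with deep libraries and the parts of depth and biology cannot be told apart. Chloroplast genes took 41.2% and 43.4% of the counts in L57 and 46.6% to 49.7% in the mutants, and they were left out of the CPM. Nuclear rRNA loci stayed in the CPM total. They took 13.1% of it in DS replicate 1, 0.579% in DS replicate 2, 2.35% in L57 replicate 2 and at most 0.530% elsewhere. Other CPM values of DS replicate 1 are lowered by this share. The summed level of 6 seed storage protein genes went from between 58959 and 66967 CPM in DS to 61.0 and 80.6 CPM in L57, while that of 8 photosynthesis genes went from between 14.5 and 16.5 CPM in DS to 49658 and 54793 CPM in L57, and no gene of either list was at 0 throughout. HEN2 itself was higher in the libraries labelled hen2-4 (129.92 and 124.46 CPM) than in L57 (29.29 and 27.07 CPM), a log2 fold change of 2.16 (SE 0.08). A count over the whole gene does not show whether that RNA is intact, and it therefore does not check the label, so "hen2-4" means the libraries labelled so. The rrp4-2 allele is a change of a single base that does not show in a gene's count. RRP4 was at 13.12 and 9.38 CPM in rrp4-2 and at 10.33 and 8.50 CPM in L57.

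The RNA exosome is a protein complex that degrades RNA from its 3′ end. RRP4 is a subunit of its core and is present wherever the complex works, whereas HEN2 is a helicase that feeds RNAs to the exosome in the nucleoplasm. In plants with a weakened exosome, short-lived RNAs such as antisense transcripts, promoter-derived transcripts and read-through products are known to build up, which makes RNAs visible that are otherwise made and destroyed. An antisense transcript runs on the strand opposite to a gene, called its sense partner here.

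The first bases of 10 of these RNAs show what they look like at their starts. The sequences were read from the TAIR10.1 assembly on the strand of the transcript, 5′ to 3′, with genomic bases before the annotated start in lower case and transcribed bases in capitals. Shown first are 4 transcripts that lie in no protein-coding gene: the strongest RNA of hen2-4 (chr1:14150346-14150495, plus strand), an RNA that appeared during imbibition (chr5:142019-142168, plus strand), 1 that was much higher in hen2-4 than in rrp4-2 (chr1:26698503-26698652, plus strand), and 1 that runs away from the start of a neighbouring gene (chr1:6697696-6697845, minus strand). 
STRINGTIE_RNA_00035578: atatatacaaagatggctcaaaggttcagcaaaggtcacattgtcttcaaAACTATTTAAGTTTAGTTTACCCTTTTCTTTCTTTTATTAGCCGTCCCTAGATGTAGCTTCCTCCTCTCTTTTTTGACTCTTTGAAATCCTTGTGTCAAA
HOMER_RNA_00152559: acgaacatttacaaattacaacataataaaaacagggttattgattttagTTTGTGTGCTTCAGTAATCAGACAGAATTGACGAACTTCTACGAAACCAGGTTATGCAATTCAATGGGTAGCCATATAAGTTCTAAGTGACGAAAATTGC
HOMER_RNA_00035292: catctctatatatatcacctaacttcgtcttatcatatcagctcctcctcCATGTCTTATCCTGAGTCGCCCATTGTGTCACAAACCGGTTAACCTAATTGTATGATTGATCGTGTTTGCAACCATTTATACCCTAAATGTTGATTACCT
HOMER_RNA_00030903: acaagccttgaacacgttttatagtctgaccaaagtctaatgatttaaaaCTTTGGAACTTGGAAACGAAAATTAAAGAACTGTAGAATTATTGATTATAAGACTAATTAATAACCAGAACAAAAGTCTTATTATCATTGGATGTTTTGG

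In these windows 34.7%, 33.3%, 38.7% and 28.7% of the bases were G or C, in the order shown. The next windows are the starts of 6 antisense RNAs on which the results turn, opposite DOG1 (chr5:18590791-18590820, plus strand), MAF3 (chr5:25987911-25987940, minus strand), PIN4 (chr2:181299-181328, plus strand), ATCTH (chr2:11042757-11042786, minus strand), AT1G25400 (chr1:8911424-8911453, plus strand) and AT1G34010 (chr1:12359756-12359785, plus strand).
HOMER_RNA_00154000: acaaattccaAATTCAAACCGAACCCAACT
HOMER_RNA_00164980: aaagcacgaaACGAACACCAAGAACATATC
HOMER_RNA_00059831: gattagatcaTCATCAAAACAAGTCTAGAT
HOMER_RNA_00058018: caaagactcgATCCAAGTCGACTCAACCGA
HOMER_RNA_00041984: atttatcatcAATACATCTCCCCAACGGCA
HOMER_RNA_00028742: gagagcagctACATCAACTATATGAAAAGC

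Most exosome-sensitive transcripts were annotated with a single exon and lay opposite a gene, as did most other de novo transcripts. HOMER had built 480 of the exosome-sensitive transcripts (83.8%) and StringTie 93. The HOMER share was 80.2% of the low-ratio and 72.8% of all other de novo transcripts. How far the tool set the exon counts was not tested, so they do not show that the RNAs were unspliced. A single exon was found in 550 (96.0%), against 89.6% of the low-ratio transcripts and 94.8% of all other de novo transcripts. The median length of exosome-sensitive transcripts was 741 bp, from 200 to 4370 bp. It was 832 bp for the low-ratio transcripts and 487 bp for all other de novo transcripts. Exosome-sensitive transcripts lay on all chromosomes, with 151, 91, 105, 94 and 132 on chromosomes 1 to 5. A protein-coding gene lay opposite to 458 (79.9%), compared with 91.0% of the low-ratio transcripts and 78.1% of all others. A further 17 began within 500 bp of the start of a protein-coding gene and ran away from it (divergent), 12 began on the same strand within 500 bp after the end of a gene (downstream), and 86 (15.0%) had none of these positions (intergenic). The intergenic share among low-ratio transcripts was 4.89%. Of the 86 intergenic transcripts, 34 lay opposite another annotated gene, which was a non-coding RNA gene for 29 of them, and 52 had no gene opposite.

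Antisense starts were concentrated in the end part of the sense gene. Their median distance from the annotated end of the partner was 342.5 bp, against 314 bp for low-ratio antisense transcripts. By the annotated feature at the start, 146 of 458 (31.9%) began in a 3′ UTR, 126 (27.5%) in coding sequence, 89 (19.4%) in an intron, 65 (14.2%) beyond the gene, 15 (3.28%) in a 5′ UTR and 17 (3.71%) in a non-coding stretch of an exon that lies between coding parts. In the 465 low-ratio antisense transcripts the corresponding shares were 38.9%, 40.9%, 10.5%, 6.88%, 0.645% and 2.15%. Intron starts and starts beyond the gene therefore made up more of the exosome-sensitive set, and starts in coding sequence fewer, given here as counts without a test. The 458 antisense transcripts covered 453 partners, of which 5 had more than 1 such transcript.

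Short sequence motifs were about as frequent as in low-ratio transcripts, and AATAAA and AAACCCTA were rarer than in protein-coding genes. TATAAA on the transcript's strand within 50 bases before the start was present at 9.60% of the exosome-sensitive transcripts, 9.78% of the low-ratio ones and 11.0% of protein-coding genes. AATAAA, the canonical signal for cleavage and polyadenylation, occurred in the last 50 bases of 5.41%, 6.26% and 9.77%, in the same order. CACGTG, the core of the G-box, was found on either strand within 250 bases before 7.68%, 8.22% and 6.49%, and AAACCCTA, a telobox found before many genes of translation, in 2.27%, 2.94% and 4.49%. A match is a string of letters and not a bound site. Because reads with several possible positions had been placed at 1 of them at random, 31-base words were also searched through the genome. No repeated word was found in 445 of the 573, while at least 10% of the words recurred in 26 and at least 50% in 2.

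These transcripts were near the limit of detection in L57 and at the level of weakly expressed genes in the mutants, which is what the selection required and is described here without a test. Their median level was 0.10 CPM in L57, 1.01 CPM in hen2-4 and 0.904 CPM in rrp4-2. Summed over all 573, they held 152 and 134 CPM in the L57 libraries, 1356 and 1485 CPM in hen2-4, and 1025 and 1208 CPM in rrp4-2. The other 1841 de novo transcripts together held 571 and 573 CPM in L57, 979 and 1005 CPM in hen2-4 and 966 and 1020 CPM in rrp4-2. The share of de novo RNA that came from exosome-sensitive transcripts was thus 51.5% to 59.6% in the mutants and 11.6% to 28.9% in the Col-0 libraries. The RNA was spread widely, since the 10 highest transcripts held 20.2% of the mutant CPM and 59 transcripts were needed to reach 50% of it.

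**Figure D1:**
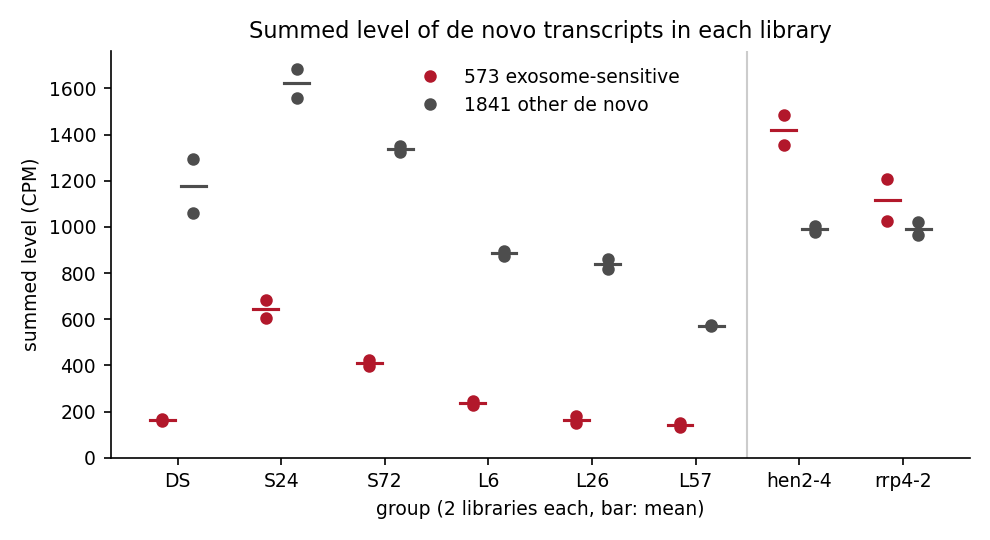
Summed level of the 573 exosome-sensitive transcripts and of the 1841 other de novo transcripts in each of the 16 libraries, in CPM on an axis that starts at 0, with 1 point per library and a line at the mean of each group. Exosome-sensitive transcripts sum to 134 to 685 CPM in Col-0 and to 1025 to 1485 CPM in the mutants.

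The median ratio to L57 was 6.33 in hen2-4 and 5.86 in rrp4-2, with a highest value of 308 and 164, against medians of 2.00 and 1.96 in low-ratio transcripts. Both ratios were at least 5 for 318 transcripts, at least 10 for 80 and at least 20 for 18. The smaller ratio was under 4 for 151. No counts were found in either L57 library for 72, and over the floor of 3 counts (0.0530 CPM in the shallower L57 library) these were at least 3.84-fold to 289-fold higher in hen2-4. The threshold fell in a dense part of the distribution. Just inside it, the smaller ratio was 3.00118 for HOMER_RNA_00156210, 3.00034 for STRINGTIE_RNA_00082158 and 3.00014 for STRINGTIE_RNA_00126612, and just outside it was 2.99532 for HOMER_RNA_00163439 (antisense to GATA16), 2.9945 for STRINGTIE_RNA_00072490 and 2.9943 for HOMER_RNA_00030381. As a description of the values that the rule used, the ratio was at least 3 in each of the 4 mutant libraries for 499 transcripts. It was under 2 in at least 1 of these libraries for 4 transcripts.

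The balance between both mutants varied from transcript to transcript. The rrp4-2 to hen2-4 ratio had a median of 0.898 and ranged from 0.210 to 2.15, and it was at or under 0.5 for 43 transcripts and at or above 2 for 5. Both hen2-4 libraries lay above both rrp4-2 libraries for 227 transcripts and the reverse held for 87. The lowest ratios belonged to HOMER_RNA_00153924, antisense to AT5G44010 (4.64 and 4.17 CPM in hen2-4, 0.784 and 1.07 CPM in rrp4-2), to the intergenic HOMER_RNA_00035292 (1.05 and 1.09 CPM in hen2-4, 0.160 and 0.307 CPM in rrp4-2) and to HOMER_RNA_00027668, antisense to AT1G07050 (2.45 and 2.6 CPM in hen2-4, 0.584 and 0.479 CPM in rrp4-2). Towards the other end lay RNAs opposite CID11, a gene for an RNA-binding protein, opposite LSF1, which takes part in starch turnover, and opposite AT5G41690. The LSF1 antisense HOMER_RNA_00090346 was at 0.477 and 0.403 CPM in hen2-4 and at 0.856 and 1.04 CPM in rrp4-2, without overlap. For the CID11 antisense HOMER_RNA_00039405 the groups overlapped, with 0 and 0.648 CPM in hen2-4 and 0.576 and 0.778 CPM in rrp4-2. Its ratio thus rests on 1 hen2-4 library without counts.

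**Figure D2:**
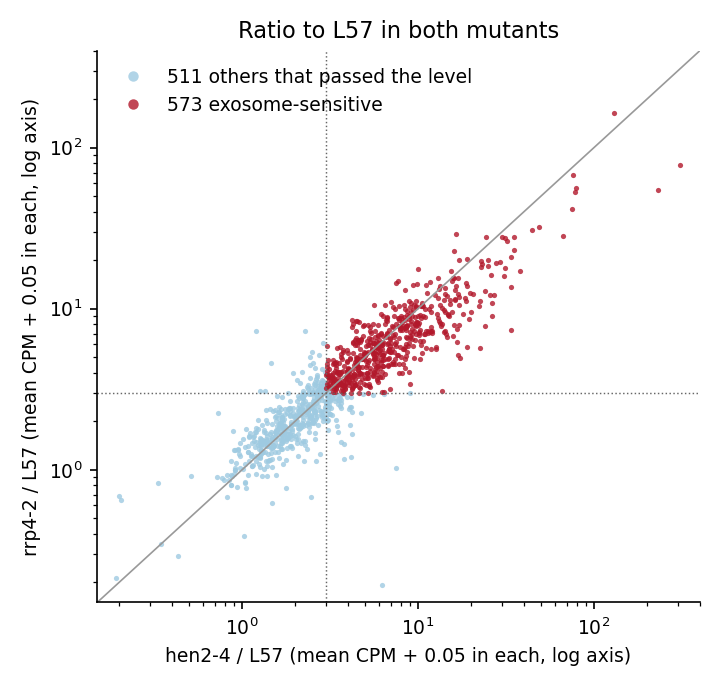
Ratio of rrp4-2 to L57 against the ratio of hen2-4 to L57 for the 573 exosome-sensitive and 511 low-ratio transcripts, both on log axes after adding 0.05 CPM to each mean, with lines at the threshold of 3. Exosome-sensitive transcripts fill the upper right corner by definition, with medians of 6.33 (hen2-4) and 5.86 (rrp4-2).

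The strongest of these RNAs in hen2-4 was the intergenic STRINGTIE_RNA_00035578, a transcript of 1373 bp on chromosome 1 of which 29.7% was G or C. It stood at 53.1 and 54.1 CPM in hen2-4, at 12.1 and 13.2 CPM in rrp4-2 and at 0.159 and 0.205 CPM in L57, and no other Col-0 library exceeded 0.0633 CPM. HOMER_RNA_00028742, antisense to AT1G34010, was at 39.2 and 43.3 CPM in hen2-4, 23.8 and 30.9 CPM in rrp4-2 and 1.17 and 1.09 CPM in L57, and its mean over the 4 mutant libraries was the highest of the set. HOMER_RNA_00093620, opposite the transcription factor gene LBD38, reached 35.9 and 32.6 CPM in hen2-4 and 27.9 and 26.7 CPM in rrp4-2, from 1.57 and 1.32 CPM in L57. In each of these the mutant libraries lay far above both L57 libraries. HOMER_RNA_00041984, which starts in the 3′ UTR of AT1G25400, went from 0.353 and 0.331 CPM to 23.9 and 37.9 CPM in hen2-4 and 17.1 and 26.7 CPM in rrp4-2. HOMER_RNA_00060195, within MIOX2 (a myo-inositol oxygenase), was the most abundant in L57 at 7.42 and 6.77 CPM and was at 27.5 and 31.5 CPM in hen2-4 and 20.7 and 33.4 CPM in rrp4-2. HOMER_RNA_00131961 (antisense to AT5G37890), HOMER_RNA_00091478 (antisense to AT3G43610), HOMER_RNA_00030988 (antisense to AT1G22330) and HOMER_RNA_00154443 (antisense to AT5G55790) were the next of the highest 10. Of the words of HOMER_RNA_00154443, 11.4% recurred in the genome, and 5 of them in HOMER_RNA_00131961, so reads may have been shared between this pair.

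Replicate libraries of the mutants stood close together, with at least 3-fold differences between them for 5 transcripts in hen2-4 and 3 in rrp4-2, compared with 34 in L57, where counts were lower. In both mutants 3 transcripts were this far apart. HOMER_RNA_00154443 was higher in replicate 2 of both (7.66 and 31.8 CPM in hen2-4, 4.41 and 22.9 CPM in rrp4-2), and HOMER_RNA_00066741 was at 0.734 and 0 CPM in hen2-4 and 0 and 0.786 CPM in rrp4-2. HOMER_RNA_00058018 was higher in replicate 2 of hen2-4 and in replicate 1 of rrp4-2. It runs opposite ATCTH, a gene for a Cys3His zinc finger protein, and starts in its 3′ UTR. Its level was 0.866 and 45.9 CPM in hen2-4 and 30.0 and 1.50 CPM in rrp4-2, with 0.230 and 0.268 CPM in L57. In each mutant 1 library was thus far above the other, and both were above L57. ATCTH itself was at 81.1 and 51.3 CPM in hen2-4, 21.5 and 69.7 CPM in rrp4-2 and 52.2 and 54.2 CPM in L57, and in each mutant the library with more antisense RNA had less sense RNA. The rule used the mean of such unequal libraries, and what set the libraries apart was not tested.

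By position, the typical level in the mutants was highest for antisense RNAs. Median hen2-4 levels were 1.17 CPM for antisense, 0.546 CPM for divergent, 0.689 CPM for downstream and 0.675 CPM for intergenic transcripts, and median L57 levels were 0.128, 0.0265, 0.0575 and 0.0320 CPM. The median ratio of hen2-4 to L57 was 6.08 for antisense, 7.98 for divergent, 5.90 for downstream and 8.49 for intergenic transcripts. Antisense RNAs that began nearer to the start of their partner than to its end, and more than 1000 bp from that end (proximal, 100 of 458) had a median of 0.781 CPM in hen2-4, and the 358 others (distal) had 1.37 CPM.

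A low content of G and C, which the choice had not used, went with exosome sensitivity. Its median was 37.5% in exosome-sensitive transcripts, 41.7% in low-ratio ones and 39.9% in all other de novo transcripts. Of the 1084 transcripts past the level in both mutants, 309 of 405 (76.3%) were exosome-sensitive where fewer than 38% of the bases were G or C. The share was 59.1% between 38% and 40%, 46.5% between 40% and 42%, 25.2% between 42% and 44%, and 17.8% (29 of 163) at 44% and above. Antisense transcripts alone gave 74.6%, 60.8%, 46.0%, 25.2% and 17.1% over the same steps, so the gradient was as steep within antisense transcripts. Transcripts without an antisense position were few, with 97 of 121 (80.2%) exosome-sensitive under 38%.

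The gradient was seen in both mutants. Over the same steps, the median log2 ratio of hen2-4 to L57 in de novo transcripts past the level was 2.56, 1.96, 1.66, 1.24 and 0.92, and in rrp4-2 it was 2.47, 1.93, 1.68, 1.25 and 0.91. For protein-coding genes the median was between 0.047 and 0.070 in hen2-4 and between 0.11 and 0.15 in rrp4-2 at every step. These ratios come from the contrast that chose the transcripts and are given as description, and the part of base composition in library preparation was not tested. Among the 10 highest in the mutants, HOMER_RNA_00058018 (49.2% G or C) and HOMER_RNA_00041984 (44.8%) lay in the step at 44% and above.

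**Figure D3:**
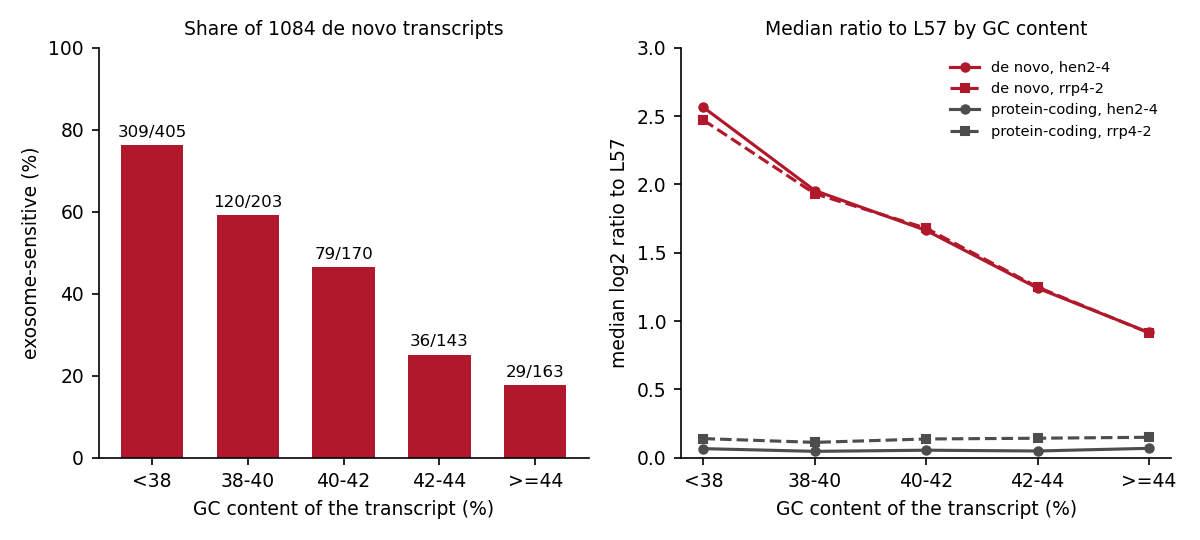
Share of de novo transcripts past 0.2 CPM in both mutants that were exosome-sensitive, in percent, by G and C content in 5 steps, and median log2 ratio of each mutant to L57 over the same steps for de novo transcripts and protein-coding genes. The share falls from 76.3% under 38% to 17.8% at 44% and above, while protein-coding genes stay at or under 0.15.

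Wild-type seeds and seedlings held these RNAs too, and their summed level was highest at S24, while the median transcript was not. The sum was 159 and 169 CPM in DS, 685 and 604 CPM in S24, 422 and 397 CPM in S72, 245 and 230 CPM in L6, 150 and 181 CPM in L26 and 152 and 134 CPM in L57. Both S24 libraries thus lay above all other Col-0 libraries, and each stage from S24 to L6 was without overlap with the next. On the TMM scale of the tests below S24 was again highest, at 778 and 757 against at most 523 in the other Col-0 libraries. The other de novo transcripts also summed highest in S24 in CPM, at 1685 and 1559 CPM against at most 1349 CPM in the other Col-0 libraries. On the TMM scale their sum was 1957 and 2161 in DS and 1914 and 1955 in S24. The median exosome-sensitive transcript was at 0.0141 CPM in DS, 0.0919 CPM in S24, 0.0588 CPM in S72, 0.0920 CPM in L6, 0.101 CPM in L26 and 0.10 CPM in L57. At S24 a part of the set thus carried the sum. The highest Col-0 stage was S24 for 178 transcripts (31.1%, against 34.5% of the other de novo transcripts), L57 for 167, L26 for 85, L6 for 81, S72 for 45 and DS for 17. In 234 the mean stayed under 0.2 CPM in all 6 Col-0 stages, as it did in 1012 of the 1841 other de novo transcripts. That these 234 were higher in both mutants was required by the rule. Conversely, 108 reached the lower of their mutant means in at least 1 stage from DS to L26, most often in S24 (87) and S72 (62). S24 replicate 1 stands apart to some degree, as 527 of 573 were detected there and 449 in replicate 2, and 156 were at least 1.5-fold higher in replicate 1 against 12 in replicate 2.

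The 4 steps from DS to L26 use no library of the rule and were tested with edgeR's quasi-likelihood test, fitted on 28824 loci and adjusted over all of them. Their log2 fold changes are on the TMM scale, which differs from that of the CPM by -0.56 from DS to S24, 0.05 from S24 to S72, -0.48 from S72 to L6 and -0.12 from L6 to L26, so a gene with equal CPM in DS and S24 has a log2 fold change of -0.56. From DS to S24, 225 exosome-sensitive transcripts rose and 11 fell at an adjusted p under 0.05, or 39.3% and 1.92%. Among all loci tested 28.9% rose and 24.8% fell (53.6% in either direction), and among the other de novo transcripts 27.5% and 7.41%. The median log2 fold change was 2.68 for exosome-sensitive transcripts, 1.34 for the other de novo transcripts and 0.22 for all loci. However, 218 exosome-sensitive transcripts had no counts in both DS libraries, and 30 had none in both S24 libraries. A fold change from a group at 0 has no measured size, so 2.68 is not read as the size of a typical rise. From S24 to S72, 32 rose (5.58%) and 144 fell (25.1%). Of the 28824 loci 7528 rose and 27.7% fell (53.8% in either direction), and of the other de novo transcripts 5.31% and 18%. The median log2 fold change was -0.85, against -0.64 for the other de novo transcripts and -0.17 for all loci. Its size is limited in the same way, as 122 exosome-sensitive transcripts had no counts in both S72 libraries. The share that fell was near that of all loci. S24 and S72 are both among the deep libraries.

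On the move to light and warmth the set divided. From S72 to L6, 91 rose (15.9%) and 123 fell (21.5%), against 33.8% and 31% of all loci (64.8% in either direction) and 12.5% and 25.9% of the other de novo transcripts. From L6 to L26, 39 rose (6.81%) and 97 fell (16.9%), against 30.2% and 28.1% of all loci (58.3% in either direction) and 8.91% and 18.6% of the other de novo transcripts. Both median log2 fold changes were 0 for the set and for all loci, and -0.34 and -0.16 for the other de novo transcripts. All shares of the set but that of rises at S24 were under those of all loci. Most exosome-sensitive transcripts passed in neither direction, with 359 and 437 of 573 in the last steps. All 573 passed the filter on low counts, which the mutants' libraries alone could satisfy, and 23, 22, 65 and 48 had no counts in any of the 4 libraries of the respective step. Without DS replicate 2, the DS to S24 comparison called 161 transcripts in place of 236, and without S24 replicate 1 it called 202.

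**Figure D4:**
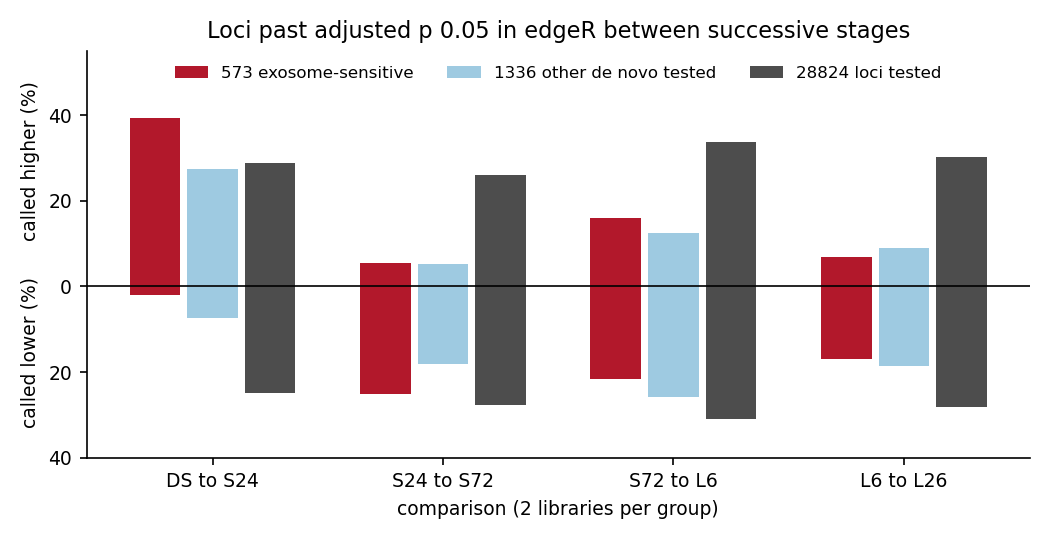
Percent of loci that rose (above the line at 0) and fell (beneath it) at an adjusted p under 0.05 in each of 4 steps, for exosome-sensitive transcripts, other de novo transcripts and all loci tested. From DS to S24, 39.3% of exosome-sensitive transcripts rose and 1.92% fell, against 28.9% and 24.8% of all loci.

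Single RNAs gave S24 much of its sum. HOMER_RNA_00161541, the longest at 4370 bp, begins 2272 bp beyond the end of AT5G41060 and was at 16.7 and 17.1 CPM in DS, 159.6 and 135.7 CPM in S24, 31.8 and 33.3 CPM in S72, 16.4 and 14.5 CPM in L6, 4.22 and 6.04 CPM in L26 and 3.51 and 3.62 CPM in L57. It rose by 2.57 on the log2 scale from DS to S24 (SE 0.19, edgeR adjusted p = 7.64e-08) and fell at each later step, by 2.13, 1.55 and 1.71. Alone it made up 22.9% of the S24 sum, and without it the sums were 525 and 468 CPM in S24 and 391 and 364 CPM in S72. AT5G41060 on the other strand was under 0.5 CPM up to S72 and at 24.9 and 26.07 CPM in L57.

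HOMER_RNA_00033833, opposite AT1G26300, was found at 0 and 0.0759 CPM in DS, 27.2 and 26.7 CPM in S24, 28.0 and 27.9 CPM in S72 and 0 in both L57 libraries. It rose by 8.67 on the log2 scale from DS to S24 (SE 0.34, edgeR adjusted p = 7.1e-10) and fell by 6.03 from S72 to L6. Its levels in S24 and S72 were far above those in hen2-4 (0.418 and 0.374 CPM). HOMER_RNA_00036839, opposite the nuclear import gene NTF2B, was at 38 and 52.9 CPM in S24 and 9.50 and 8.79 CPM in S72, and HOMER_RNA_00038375, opposite TFIIIA (a factor for 5S rRNA transcription), showed the reverse with 7.51 and 8.45 CPM in S24 and 36.7 and 32.1 CPM in S72. The latter rose by 2.15 on the log2 scale (SE 0.27, edgeR adjusted p = 1.84e-05).

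Some RNAs were without counts in dry seed and present after 24 h of imbibition. HOMER_RNA_00156178, opposite AT5G38200, was at 6.03 and 4.51 CPM in S24, at least 125-fold higher than the floor of 3 counts in DS, HOMER_RNA_00043116, opposite SRO2, was at 4.14 and 2.96 CPM (at least 84.2-fold), and the intergenic HOMER_RNA_00152559 was at 3.36 and 2.53 CPM (at least 69.9-fold). All 3 passed the test from DS to S24, with an edgeR adjusted p of 4.52e-09, 2.2e-08 and 3.47e-08. HOMER_RNA_00152559 stayed present through S72 (0.856 and 1.22 CPM), L6 (4.39 and 4.42 CPM) and L26 (1.33 and 1.66 CPM), was at 0 in both L57 libraries, and was at 3.71 and 3.83 CPM in hen2-4 and 3.35 and 3.34 CPM in rrp4-2. Its RNA at L6 was thus above that in all 4 mutant libraries.

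The 11 falls at imbibition included RNAs that were abundant in dry seed. HOMER_RNA_00058018 was at 52.4 and 53.1 CPM in DS and 7.47 and 1.07 CPM in S24 (log2 fold change -4.24, SE 1.4, edgeR adjusted p = 0.0204), and it lost the call without S24 replicate 2 (adjusted p = 0.0989). ATCTH fell with it, from 38.1 and 47.0 CPM to 5.10 and 10.9 CPM. In S72 HOMER_RNA_00058018 was higher again, at 25.9 and 21.7 CPM, a step that did not pass (edgeR adjusted p = 0.111). STRINGTIE_RNA_00049582 (opposite AT2G29290) fell by 3.29 on the log2 scale and STRINGTIE_RNA_00026121 (opposite CYCA2;4, a cyclin gene) by 1.92. HOMER_RNA_00047590, an intergenic RNA at 19.8 and 20.5 CPM in DS, and HOMER_RNA_00058018 and HOMER_RNA_00161541 were the most abundant in DS, where the highest pair held 44.5% of the sum. HOMER_RNA_00047590 was at 8.49 and 9.79 CPM in S24 and at 19.2 and 6.03 CPM in S72.

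During stratification the largest rises were those of RNAs opposite OXS3, a gene of the oxidative stress response, opposite AT4G33150, which encodes an enzyme of lysine degradation, and opposite the abscisic acid receptor gene RCAR3. The RCAR3 antisense HOMER_RNA_00156674 was at 0.261 and 0 CPM in S24 and 0.658 and 0.515 CPM in S72 (edgeR adjusted p = 0.0288), a call lost without S72 replicate 1 (adjusted p = 0.0759), without organellar and rRNA loci (0.0518), with counts per transcript (0.251) and with DESeq2 (0.0618). The OXS3 antisense HOMER_RNA_00163593 was at 0.694 and 0.829 CPM in S24 and 5.88 and 5.57 CPM in S72 (log2 fold change 2.95, SE 0.27, edgeR adjusted p = 9.22e-07), while OXS3 was at 36.4 and 35.4 CPM and then 247 and 208 CPM. HOMER_RNA_00156945, opposite the histone gene HTB4, was at 1.86 and 1.11 CPM in S24 and at 0 in both S72 libraries, at least 115-fold lower. HOMER_RNA_00090391, opposite ICME-LIKE2, fell by 3.74 (edgeR adjusted p = 0.0469), a call that did not hold without either S24 replicate.

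After the move to light and warmth, HOMER_RNA_00030903 made the clearest start. It begins 79 bp from the start of AT1G19380 and runs the other way, and it was at 0 in both DS and both S72 libraries, at 0.252 and 0.268 CPM in S24 and at 6.44 and 6.42 CPM in L6, at least 498-fold higher than the S72 floor (edgeR adjusted p = 7.44e-10). AT1G19380 was at 1.63 and 1.60 CPM in S72 and 2.29 and 2.31 CPM in L6 (log2 fold change 0.03, edgeR adjusted p = 0.897). HOMER_RNA_00131961 rose from 0 and 0.0165 CPM to 0.541 and 0.722 CPM at this step and HOMER_RNA_00137898 (opposite AT5G13760) from 0 and 0.0165 CPM to 0.451 and 0.555 CPM. HOMER_RNA_00041984 went the other way, from 6.41 and 4.88 CPM in S72 to 0.0601 and 0.0419 CPM in L6 (log2 fold change -7.23, SE 1.1, edgeR adjusted p = 5.5e-05), and RNAs opposite AT5G58370 and CLT3, a gene of glutathione homeostasis, also fell. From L6 to L26, HOMER_RNA_00155541 (opposite AT5G14910) went from 0 in both libraries to 0.794 and 0.813 CPM, at least 25.6-fold higher. STRINGTIE_RNA_00055615 (opposite ASG3) went from 0.841 and 0.618 CPM to 0 in both, at least 22.7-fold lower.

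**Figure D5:**
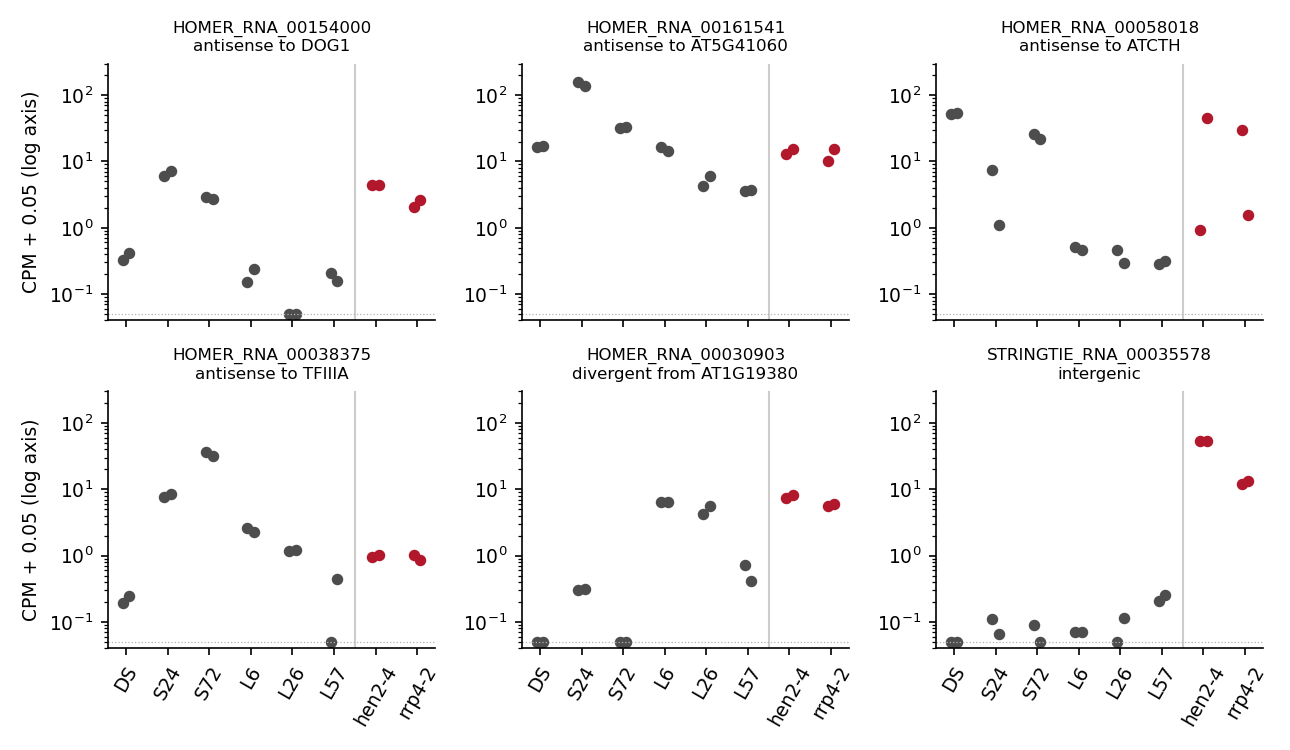
Level of 6 exosome-sensitive transcripts in each of the 16 libraries, in CPM on a log axis after adding 0.05 CPM, with 1 point per library and the groups in developmental order followed by the mutants. The DOG1 antisense is high in S24 and S72 (2.68 to 7.16 CPM), absent in L26 and high again in both mutants (2.03 to 4.44 CPM).

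Of 73 regulators of dormancy, hormone response, light and flowering in a list chosen with these data known, DOG1, MAF3 and PIN4 had an exosome-sensitive RNA. Of 27444 protein-coding genes, 453 lay opposite such an RNA, and the number among regulators is not read as a result about them. DOG1 sets the depth of seed dormancy, and its antisense HOMER_RNA_00154000 (765 bp) begins in an intron, 705 bp from the annotated start of DOG1. It was at 0.281 and 0.370 CPM in DS, 5.97 and 7.16 CPM in S24, 2.88 and 2.68 CPM in S72, 0.10 and 0.188 CPM in L6, 0 in both L26 libraries and 0.159 and 0.110 CPM in L57, and at 4.44 and 4.32 CPM in hen2-4 and 2.03 and 2.6 CPM in rrp4-2. It rose by 3.77 on the log2 scale from DS to S24 (SE 0.25, edgeR adjusted p = 8.55e-08), fell by 1.20 to S72 (edgeR adjusted p = 0.000302) and by 4.74 to L6 (edgeR adjusted p = 1.25e-08), and was at least 4.48-fold lower again in L26. S24 was the highest Col-0 stage, without overlap with any other, and its libraries also lay above those of both mutants.

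DOG1 sense RNA was at 56.1 and 62.3 CPM in DS, 92.1 and 87.9 CPM in S24, 79.6 and 81.0 CPM in S72, 6.82 and 6.38 CPM in L6 and 0.140 and 0.190 CPM in L26. Its log2 fold change on the TMM scale was 0.05 from DS to S24 (edgeR adjusted p = 0.635) and -0.12 from S24 to S72 (edgeR adjusted p = 0.262), steps at which the antisense passed, and both strands fell from S72 to L6, DOG1 by 4.08. In the mutants DOG1 was at 3.85 and 3.94 CPM (hen2-4) and 3.34 and 4.06 CPM (rrp4-2) against 2.42 and 2.71 CPM in L57, log2 fold changes of 0.58 (edgeR adjusted p = 0.00197) and 0.44 (edgeR adjusted p = 0.014). On the TMM scale the antisense thus changed at steps where the sense RNA did not pass the test. In CPM, DOG1 sense RNA was higher in S24 than in DS without overlap, so its result at that step depends on the scaling.

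MAF3 encodes a MADS-domain flowering regulator related to FLC. Its antisense HOMER_RNA_00164980 (887 bp, start in an intron) was at 1.04 and 1.26 CPM in DS, 1.44 and 1.26 CPM in S24, 0.985 and 0.968 CPM in S72, 0.721 and 0.743 CPM in L6, 0.193 and 0.264 CPM in L26 and 0 in both L57 libraries, with 0.367 and 0.403 CPM in hen2-4 and 0.232 and 0.329 CPM in rrp4-2. It fell by 0.89 from S72 to L6 (edgeR adjusted p = 0.0119) and by 1.79 from L6 to L26 (SE 0.31, edgeR adjusted p = 0.000273). All libraries from DS to L6 lay above the mutant libraries, whereas both L26 libraries lay under those of hen2-4. MAF3 sense RNA was at 9.06 to 18.8 CPM from DS to S72 and 7.42 to 9.17 CPM from L26 to L57. PIN4 encodes an auxin efflux carrier, and its antisense HOMER_RNA_00059831 (730 bp) did not exceed 0.0838 CPM in any library from DS to L26. It was at 0.212 and 0.157 CPM in L57, 2.72 and 2.66 CPM in hen2-4 and 1.26 and 2.02 CPM in rrp4-2, whereas PIN4 was at 47.4 and 43.5 CPM in L57, 55.5 and 51.0 CPM in hen2-4 and 48.3 and 44.7 CPM in rrp4-2. The PIN4 log2 fold change was 0.22 in hen2-4 (edgeR adjusted p = 0.0781) and -0.05 in rrp4-2 (edgeR adjusted p = 0.73).

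Levels of the sense partners were not used in the choice, but they come from the same libraries. The antisense levels in L57 and the mutants were used, so these and the ratios made from them are a description. Per kilobase of transcript, the exosome-sensitive antisense RNA had a median level of 0.168 CPM in L57, 1.45 CPM in hen2-4 and 1.25 CPM in rrp4-2, and its partner 8.85, 10.15 and 10.4 CPM. The median ratio of antisense to sense level per kilobase was 0.519% in DS, 5.01% in S24, 1.67% in S72, 1.85% in L6, 1.87% in L26, 1.60% in L57, 14.0% in hen2-4 and 12.6% in rrp4-2. The antisense level was above that of its partner for 15 of 458 pairs in L57, 58 in hen2-4 and 46 in rrp4-2.

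From L57 to hen2-4, 164 of the 447 partners tested rose (36.7%) and 37 fell (8.28%), against 19.6% and 10.6% of all loci and 23.9% and 12.8% of the partners of other de novo transcripts. From L57 to rrp4-2, 109 rose (24.4%) and 40 fell (8.95%), against 18% and 8.54% of all loci and 20.5% and 9.59% of the other partners. The median log2 fold change of partners was 0.19 in hen2-4 and 0.12 in rrp4-2, where that of all loci was 0.077 and 0.094. Both comparisons share the L57 libraries. LBD38 was among the partners that rose, at 80.2 and 74.9 CPM in L57, 131 and 142 CPM in hen2-4 (log2 fold change 0.80, edgeR adjusted p = 4.67e-05) and 118 and 115 CPM in rrp4-2. AT1G34010 fell, from 12.9 and 13.1 CPM to 8.54 and 7.50 CPM in hen2-4 (log2 fold change -0.72, edgeR adjusted p = 0.0013) and 9.03 and 7.86 CPM in rrp4-2. The kit and the counting kept strand, but the leak of reads between strands was not tested.

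Pairs in which both strands passed over a stage are given as counts with no test. From DS to S24 both passed in 139 of 452 pairs, of which 97 moved in the same direction and 42 in opposite ones, and 40 of these 42 were a rise of the antisense with a fall of the partner. The same and opposite counts were 75 and 38 of 113 from S24 to S72, 122 and 37 of 159 from S72 to L6, and 70 and 20 of 90 from L6 to L26. The shares alike were thus 69.8%, 66.4%, 76.7% and 77.8%, where the shares of rises on each strand, taken separately, would give 64.96%, 50.3%, 51.5% and 50.0%. At the first step, at which most antisense RNAs and most partners of these pairs rose, the observed share was near that value. From S24 to S72 the opposite pairs were mostly falls of the antisense with a rise of the partner (36 of 38).

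Genes of the exosome and its nuclear helpers also varied over the stages, as did most loci tested. Of 21 listed genes, 8 rose and 9 fell from DS to S24, 17 rose and 3 fell from S24 to S72, 10 rose and 5 fell from S72 to L6, and 0 rose and 17 fell from L6 to L26. Of all loci tested, 53.6%, 53.8%, 64.8% and 58.3% passed in either direction at these steps. RRP4 was at 3.23 and 4.03 CPM in DS, 22.0 and 19.5 CPM in S24, 42.8 and 46.1 CPM in S72 and 57.9 and 57.7 CPM in L6, a rise of 1.96 on the log2 scale to S24 and 1.15 to S72. HEN2 was at 44.8 and 45.3 CPM in DS, 51.1 and 46.2 CPM in S24, 65.3 and 67.2 CPM in S72 and 110 and 106 CPM in L6, with a log2 fold change of -0.45 from DS to S24 on the TMM scale (edgeR adjusted p = 0.000259) although its CPM was higher in S24, so the direction for HEN2 at this step depends on the scaling. At S24, where the summed exosome-sensitive RNA was highest in Col-0, RRP4 was thus above DS and under S72.

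In the mutants, 3 of the 21 rose and 3 fell in hen2-4, and 5 rose and 1 fell in rrp4-2. Of all loci, 19.6% rose and 10.6% fell in hen2-4, and 18% rose and 8.54% fell in rrp4-2. SOP1 (AT1G21580), a zinc finger protein known to work with HEN2, was the gene that rose most in both besides HEN2 in hen2-4. It was at 44.94 and 43.42 CPM in L57, 126.70 and 132.12 CPM in hen2-4 and 143.25 and 127.12 CPM in rrp4-2, log2 fold changes of 1.54 (SE 0.14, edgeR adjusted p = 4.73e-06) and 1.52 (SE 0.14, edgeR adjusted p = 8.79e-06). No mutant library overlapped L57.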

How the data were processed

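The members and gene lists were chosen with earlier results of these data known. Reads were trimmed with HOMER 4.11.1 and mapped to TAIR10 with STAR 2.7.9a by the authors, who kept reads with several positions at 1 random position. Estimated counts per transcript were then made by the authors with StringTie 2.1.4 against Araport11 and the de novo transcripts, and were deposited unscaled. TPM values, also deposited by the authors for 46640 of 61786 transcripts, served only to check that 16 of 16 count columns carry the right name, including 1 column spelled rrpr4. Coordinates came from the deposited annotation of de novo transcripts, and gene models and sequences from RefSeq on TAIR10.1.

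Estimated counts were rounded and summed per locus (40421 loci). CPM was taken over nuclear genes and de novo transcripts. A median over de novo transcripts or partners weighs each locus equally. Tests were made in R 4.3.3 with edgeR 4.0.16 (TMM factors, filterByExpr, 1 quasi-likelihood fit of all 16 libraries in 8 groups, 8 residual degrees of freedom), two-sided, with Benjamini-Hochberg adjustment over 28824 loci within a comparison. The SE of a log2 fold change was its size over the root of its F statistic. Scripts were tested on simulated data. A fold against a group at 0 is given against a floor of 3 counts in the shallower library, which covers counting error only. The floor was 0.0122 to 0.0530 CPM. L57 to hen2-4 and L57 to rrp4-2 chose the members, so members were tested only from DS to L26.

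Named were the 10 members highest in the mutants, those at a listed regulator, the 3 largest rises and falls that passed in each tested step with at least 0.5 CPM and no overlap, the 3 highest per Col-0 stage, those nearest to the ratio of 3 on either side, the 3 highest and lowest ratios of rrp4-2 to hen2-4, their sense partners, HEN2 and RRP4. SOP1 and HOMER_RNA_00066741 were named after their values were seen. Alternatives tried were DESeq2 1.42.0 size factors and its Wald test, no filter on low counts, transcript rows, libraries left out, a replicate block, other scalings and other thresholds of the rule.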

Additional observations from a re-analysis of the deposited data

How the results depend on the processing

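The number of exosome-sensitive transcripts was 573, was 374 with CPM taken over all rows, organelles included, and was 318 with a ratio of at least 5, and leaving out 1 library gave 548 to 581. With counts fitted per transcript in place of per locus, 74 passed from S24 to S72, 133 from S72 to L6 and 74 from L6 to L26, in place of 176, 214 and 136, and the cause was not tested. Leaving out 1 library gave 161 to 240 from DS to S24 (161 without DS replicate 2, 202 without S24 replicate 1), 130 to 184 from S24 to S72, 170 to 193 from S72 to L6 and 101 to 110 from L6 to L26. Without DS replicate 1 and S24 replicate 1 together, a choice made after seeing the data, 170 passed. DESeq2's Wald test gave 239, 205, 231 and 160. The median log2 fold change of all loci from DS to S24 moved from 0.22 to 0.077 with DESeq2 size factors and to 0.44 without organellar and rRNA loci, and from S24 to S72 from -0.17 to -0.25 and -0.38. Of 246 values of named transcripts under an alternative, 230 kept their call, 16 lost it and 0 reversed.

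A replicate block gave 235, 161, 203 and 129 over the 4 steps. Deviations of same-numbered libraries correlated from -0.0471 to 0.0910 over 28 pairs of groups, so the numbers do not pair the libraries. The shallow L57 libraries limit ratios, since 72 transcripts had no count there.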
